A study of Mus musculus with 30 samples.

Results

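The integrated stress response and the unfolded protein response were described through 10 genes, Atf4, Ddit3, Atf3, Trib3, Asns and Chac1 of the ATF4 branch and Hspa5, Xbp1, Dnajb9 and Herpud1 of the endoplasmic reticulum (ER) branch. They were taken by symbol from a table of 21841 genes, and all 10 were among the 13663 genes with enough reads to be tested. The table came from bulk RNA sequencing of 30 spontaneous mammary tumours of MMTV-PyMT mice (FVB/N-Tg(MMTV-PyVT)634Mul/J, given as WT in the labels), in which the mammary tumour virus promoter drives the polyoma middle T oncogene in mammary epithelium. Each of 6 groups held 5 tumours, from mice injected intraperitoneally over 72 hours with vehicle, with 5-fluorouracil (5-FU), with gemcitabine, with KCL-HO-1i alone, or with the inhibitor joined to either chemotherapy (KCL-HO-1i/5-FU, called the 5-FU combination here, and KCL-HO-1i/gemcitabine, the gemcitabine combination). The labels give 25 µmol/kg of KCL-HO-1i every day, 40 mg/kg of 5-FU per 4 days and 64 mg/kg of gemcitabine per 7 days. The text of the study states a much lower dose of gemcitabine and a shorter time, and the label values are used here. KCL-HO-1i is a tin phosphate salt formulation of tin mesoporphyrin that inhibits heme oxygenase-1 (HO-1, gene Hmox1), the enzyme that degrades heme, and 5-FU and gemcitabine are pyrimidine antimetabolites. All groups carried the same transgene, and no group of tumour-free mammary gland is compared here. Ages of the mice are not given in the sources used here.

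In the integrated stress response, kinases that sense ER stress, amino acid shortage, viral RNA or heme shortage phosphorylate the translation factor eIF2, which lowers translation of most messages while that of Atf4 rises, and ATF4 then transcribes genes for amino acid supply, tRNA charging and, under lasting stress, cell death. In the unfolded protein response, the ER sensor IRE1 splices Xbp1 message, PERK phosphorylates eIF2 and ATF6 is cleaved, and the resulting factors raise chaperones and the machinery that exports and degrades misfolded proteins. Since ATF4 protein and Xbp1 splicing are set after transcription, the gene-level counts described here measure message abundance and neither of those steps.

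Library totals lay between 10067577 and 13622264 counts, and 3 counts corresponded to 0.215 to 0.302 CPM (counts scaled by library size and TMM factor). Markers of luminal epithelium were present in every library, with a summed level between 2430 and 5670 CPM. In the 5-FU replicate 4 library the summed milk protein markers stood at 368 CPM against a median of 14300 CPM over the 30 libraries, and this library held the lowest value of 5 of the 10 stress genes (Ddit3, Atf3, Chac1, Hspa5 and Dnajb9). The KCL-HO-1i/5-FU replicate 3 library had the lowest luminal sum, 2430 CPM, a fibroblast sum of 4480 CPM against a median of 898 CPM, and the lowest Asns and Trib3. Vehicle replicate 3 had the lowest macrophage, fibroblast and T cell sums of the 30 libraries (110, 90.1 and 0.704 CPM against medians of 649, 898 and 6.19 CPM), sums above the median for proliferation (629 against 455 CPM), neutrophils (70.4 against 23.8 CPM) and erythroid cells (452 against 123 CPM), and the highest value of 4 stress genes (Atf4, Atf3, Asns and Xbp1). The part of these differences in its values was not tested. Values without these 3 libraries stand beside the results on single stress genes that changed with them, and beside the counts over gene lists that moved most. In bulk tumours, fewer cells of a type and less RNA per cell cannot be told apart. Hmox1, the target of the inhibitor, averaged 49.4 ± 25.4 CPM in vehicle, 152.8 ± 105.1 CPM with KCL-HO-1i alone, 355.9 ± 475.1 CPM in the 5-FU combination and 202.2 ± 126.1 CPM in the gemcitabine combination (SD, n = 5 each), and its KCL-HO-1i average over backgrounds was 2.42 ± 0.38 on the log2 scale (SE), at an adjusted p of 0.0113 (edgeR). In the 5-FU combination replicate 3 stood at 1198 CPM and the other 4 libraries between 63.55 and 221.7 CPM, with a mean of 145.3 ± 72.75 CPM (SD, n = 4). Without replicate 3 the average was 1.99 ± 0.30 (adjusted p = 0.00418, edgeR).

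The levels of the 10 genes spanned a wide range when set per length of exon (CPM per kb, mean of 30 libraries). Xbp1, the transcription factor of the IRE1 arm, stood at 582 CPM per kb and Hspa5, the main ER chaperone BiP, at 325 CPM per kb. Atf4 followed at 94.5 CPM per kb, Herpud1 at 49.1, Dnajb9 at 34.5, Asns at 26.4, Ddit3 at 16.6, Trib3 at 15.2, Atf3 at 10.7 and Chac1 at 1.57. Chac1 rested on between 9 and 72 counts per library, so its values carry the largest counting error of the set, whereas the other genes had at least 94 counts in every library. Of the spread of log2 CPM over the 30 libraries, differences between group means held 47.1% for Asns, 36.2% for Chac1, 33.9% for Hspa5, 25.7% for Herpud1 and 19.9% for Atf4. They held 14.1% for Trib3, 13.2% for Dnajb9, 11.9% for Ddit3, 10.6% for Xbp1 and 1.72% for Atf3. Means of 5 libraries also differ by chance, and the part of these shares that chance gives was not subtracted.

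**Figure D1:**
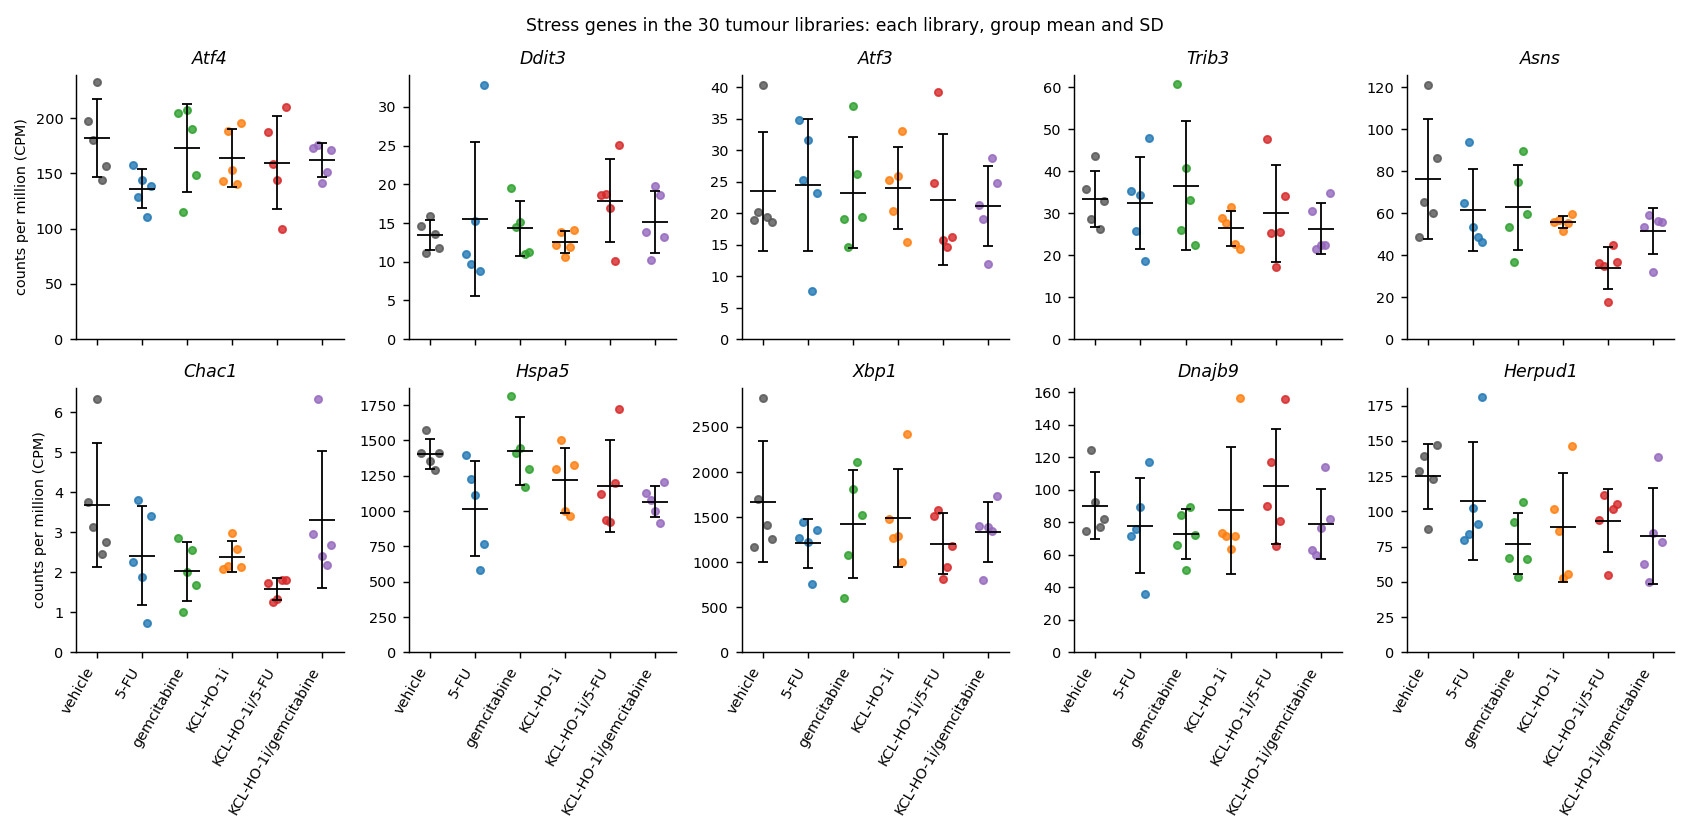
CPM of the 10 stress genes (vertical axis, from 0) in each of the 6 groups (horizontal axis), with 1 point per library and black bars for the group mean and SD (n = 5). The 5 KCL-HO-1i/5-FU libraries sit between 17.5 and 44.7 CPM for Asns, below all 5 vehicle libraries, while the groups overlap widely for Atf3, Trib3 and Xbp1.

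No stress gene passed an adjusted p of 0.05 in edgeR's quasi-likelihood test in any of the 13 comparisons made. The background was low in the same fit. The share of all 13663 tested genes past that threshold was 0.0586% for the KCL-HO-1i average (the mean difference made by KCL-HO-1i over the vehicle, 5-FU and gemcitabine backgrounds), 0.651% for any difference between the 6 groups and 0.0% in each of the other 11 comparisons. Counts at an unadjusted p under 0.05 are therefore given as a description. For 5-FU against vehicle 2 of the 10 genes had such a p (Atf4 and Hspa5, both lower) where 3.89% of all genes did, and for gemcitabine against vehicle 2 of 10 (Chac1 and Herpud1, both lower) where 3.83% did. For KCL-HO-1i against vehicle it was 0 of 10, with 9.43% of all genes. For KCL-HO-1i/5-FU against vehicle it was 2 of 10 (Asns and Chac1, both lower) with 17.6% of all genes, and for KCL-HO-1i/gemcitabine against vehicle 3 of 10 (Asns, Hspa5 and Herpud1, all lower) with 19.8%. The KCL-HO-1i average gave 1 of 10 (Asns, lower) with 23.0% of all genes, and the test of any difference between groups 2 of 10 (Asns and Chac1) with 18.7%. Under the combinations and in the average these counts differed from the counts that such shares give in 10 genes by less than 2 genes. DESeq2 called Asns at an adjusted p under 0.05 in 3 comparisons (KCL-HO-1i/5-FU against vehicle, the average and any difference) and Chac1 in 1 (KCL-HO-1i/5-FU against vehicle). Limma-voom, fitted only for the treatments against vehicle and the average, called Asns in KCL-HO-1i/5-FU and Herpud1 in KCL-HO-1i/gemcitabine, both against vehicle. The shares of all genes that DESeq2 and limma-voom called are not given here, so these calls have no background beside them.

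Between the combinations and their parts, KCL-HO-1i/5-FU had 1 of 10 genes at an unadjusted p under 0.05 against 5-FU (Asns, lower) with 11.4% of all genes, and 1 of 10 against KCL-HO-1i (Asns, lower) with 16.9%. KCL-HO-1i/gemcitabine had 1 of 10 against gemcitabine (Hspa5, lower) with 13.5% of all genes, and 0 of 10 against KCL-HO-1i with 2.66%. The interaction, which asks whether KCL-HO-1i acts differently on the chemotherapy background than on vehicle, gave 0 of 10 for 5-FU with 8.53% of all genes and 1 of 10 for gemcitabine (Chac1) with 1.34%. The median log2 fold change of the 10 genes was below 0 against vehicle in each treatment, at -0.26 with 5-FU, -0.15 with gemcitabine, -0.18 with the inhibitor alone, -0.22 in the 5-FU combination and -0.26 in the gemcitabine combination, where the median over all tested genes lay between -0.01 and 0.03. These 5 comparisons share the vehicle libraries. Among them is vehicle replicate 3, with the highest value of 4 of the 10 genes, and the medians are not given without it.

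**Figure D2:**
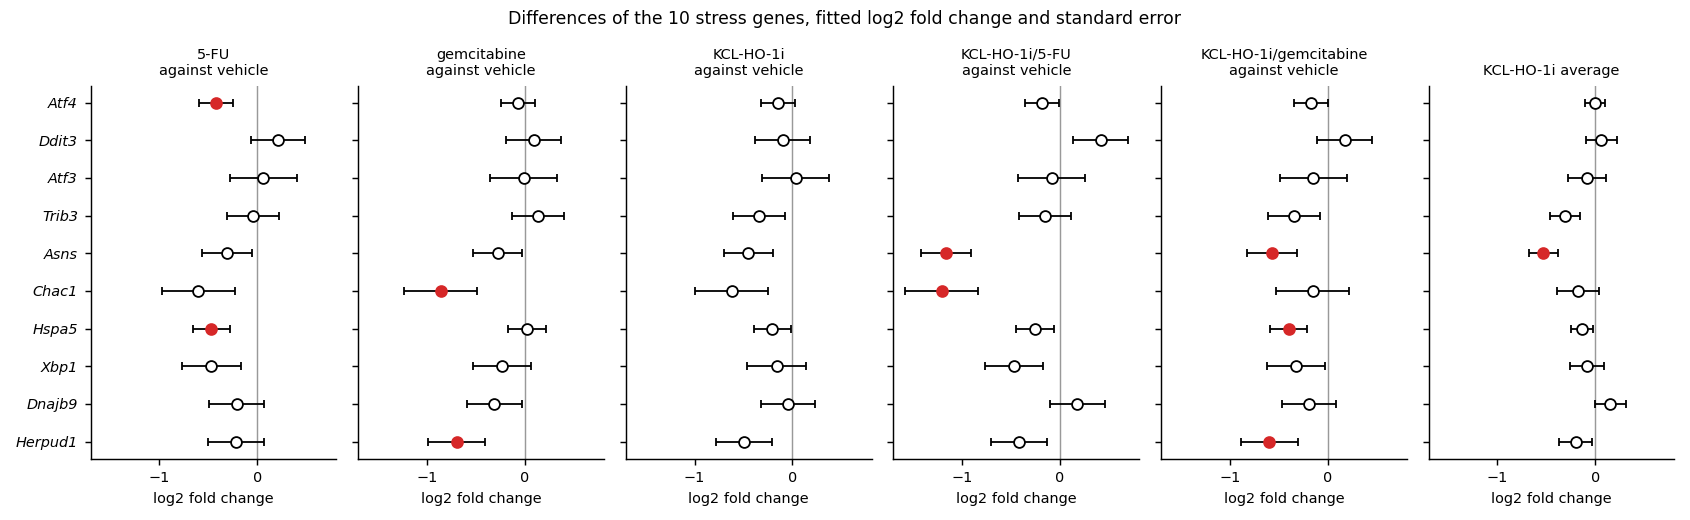
Fitted log2 fold change (horizontal axis) with its standard error (bars) of the 10 stress genes (rows) in 5 treatments against vehicle and in the KCL-HO-1i average (panels). Filled red points have an unadjusted p under 0.05 in edgeR and none passes after adjustment; the points farthest below 0 are Asns and Chac1 in KCL-HO-1i/5-FU, at -1.16 and -1.21.

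Asns encodes asparagine synthetase and is a classical ATF4 target of the amino acid response. It lies on chromosome 6 at chr6:7675169-7693254 (minus strand, GRCm38, GENCODE M21). The RefSeq promoter window (GRCm38.p6, 250 bases before to 50 after the annotated start), chr6:7693160-7693459, is shown because Asns had the smallest p of the 10 genes, and it holds 1 match, in capitals, to the letters TGATGNAA or their reverse complement TTNCATCA, the core that ATF4 with a C/EBP partner is known to bind. The match starts at position -23 relative to the annotated start.
Asns: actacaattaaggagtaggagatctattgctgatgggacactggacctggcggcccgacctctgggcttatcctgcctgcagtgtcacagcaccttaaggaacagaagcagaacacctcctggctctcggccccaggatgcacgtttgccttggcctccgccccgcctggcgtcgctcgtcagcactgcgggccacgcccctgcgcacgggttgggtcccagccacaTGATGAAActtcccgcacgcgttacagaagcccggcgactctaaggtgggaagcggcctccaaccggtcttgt
These letters occur in 3.97% of the 32851 promoter windows of that length. Single matches were also present in the windows of Atf3 (TTGCATCA), Trib3 (TTACATCA), Herpud1 (TTGCATCA) and Chac1, and none of the motifs searched occurred in those of Atf4, Ddit3, Xbp1 and Dnajb9. A match describes the letters of the window only.

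In vehicle tumours Asns stood at 48.9, 65.3, 121.0, 59.96 and 86.4 CPM. The 5-FU libraries held 64.99, 94.0, 53.7, 48.8 and 46.5 CPM, and the gemcitabine libraries 53.4, 36.7, 75.0, 89.8 and 59.5 CPM. In the KCL-HO-1i group the values were 56.0, 56.8, 51.5, 55.3 and 59.8 CPM. These 3 groups overlapped vehicle, and KCL-HO-1i had the smallest spread, with a coefficient of variation of 5.34% against 37.3% in vehicle. KCL-HO-1i/5-FU gave 36.3, 35.0, 17.5, 44.7 and 37.0 CPM, and KCL-HO-1i/gemcitabine 53.5, 59.2, 32.2, 56.5 and 55.8 CPM. The 5 KCL-HO-1i/5-FU libraries lay below every vehicle, 5-FU and KCL-HO-1i library, and overlapped gemcitabine and KCL-HO-1i/gemcitabine.

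The order of the group means of Asns ran from 76 ± 28 CPM for vehicle through 62.9 ± 20.4 for gemcitabine, 61.6 ± 19.5 for 5-FU, 55.9 ± 2.98 for KCL-HO-1i alone and 51.5 ± 10.9 for the gemcitabine combination (SD, n = 5 each) down to 34.1 CPM for the 5-FU combination, whose coefficient of variation was 29.3%, and the ranges of neighbours in this order overlapped. For KCL-HO-1i/5-FU against vehicle the log2 fold change was -1.16 ± 0.26 (SE), a fold of 0.447, with an adjusted p of 0.0876 (edgeR), and groups without overlap were found for 2 of the 10 stress genes, Asns and Chac1, and for 3.6% of all genes. Over the alternatives the adjusted p ran from 0.00384 to 1.0. It was 0.00384 with DESeq2, 0.0433 with limma-voom and 0.0358 without replicate 4 of the 5-FU combination, but 0.26 when replicate 3 of that group was left out, the library with the lowest value and the large fibroblast sum, where the log2 fold change was -1.0. Without vehicle replicate 3, the highest library, it was -0.94 with an adjusted p of 0.313.

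Against 5-FU the log2 fold change of Asns in KCL-HO-1i/5-FU was -0.85 ± 0.26 (SE, adjusted p = 0.275, edgeR), and 1 of 10 stress genes and 1.57% of all genes had groups without overlap. Against KCL-HO-1i it was -0.71 ± 0.26 (adjusted p = 0.161), where 2 of 10 stress genes, Asns and Chac1, and 4.41% of all genes did not overlap. Without KCL-HO-1i/5-FU replicate 3 these log2 fold changes were -0.69 and -0.55. The interaction of KCL-HO-1i and 5-FU on Asns, -0.40 ± 0.36 (adjusted p = 0.755), did not pass.

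In the gemcitabine combination the log2 fold change of Asns against vehicle was -0.57 ± 0.25 (SE, adjusted p = 0.209, edgeR). It was -0.37 without vehicle replicate 3, -0.54 without vehicle replicate 5 and -0.46 without replicate 3 of that combination, each time with an unadjusted p no longer under 0.05, and 0.19 ± 0.60 with the number of the mouse code in the labels as a covariate. Averaged over the 3 backgrounds, Asns had a log2 fold change of -0.53 ± 0.15 (SE) with KCL-HO-1i, with an adjusted p of 0.0558 in edgeR and 0.0142 in DESeq2. Over all alternatives this adjusted p ran from 0.0142 to 0.915. Leaving out 1 library gave an adjusted p between 0.0289 and 0.122, under 0.05 in 7 cases and above that of the full fit in all the others. It was highest without KCL-HO-1i/5-FU replicate 3, where the log2 fold change was -0.48, and was 0.0837 without vehicle replicate 3 (-0.47). Of the 7, it became 0.0423 without 5-FU replicate 5, 0.0289 without gemcitabine replicate 5, 0.0491 and 0.0474 without replicates 1 and 5 of KCL-HO-1i alone, 0.0317 and 0.0478 without replicates 4 and 5 of the 5-FU combination, and 0.0476 without replicate 4 of the gemcitabine combination. The labels also give each tumour a mouse code whose leading number, 1 of 13, is shared by some groups and whose meaning is not stated. Number 76 was carried by replicates 1 to 4 of gemcitabine and replicates 1 to 3 of 5-FU, and by no vehicle tumour. For these tumours against vehicle, the number and the treatment cannot be told apart. With the leading number as a covariate the average log2 fold change of Asns was 0.13 ± 0.35 (adjusted p = 0.915, edgeR), so that the direction turned. Only 3 of the 13 numbers hold tumours both with and without KCL-HO-1i. Within number 84 Asns was 48.9 CPM in vehicle and 55.8 in the gemcitabine combination, within number 69 it was 48.8 in 5-FU and 55.3 in KCL-HO-1i, and within number 74 it was 46.5 in 5-FU against 35.0 and 44.7 in KCL-HO-1i/5-FU. Only number 74 held the chemotherapy fixed, and there Asns was lower in both KCL-HO-1i/5-FU libraries than in the 5-FU library. In numbers 84 and 69 the chemotherapy differed as well, and Asns was higher in the library with KCL-HO-1i. For the other tumours the number and KCL-HO-1i cannot be told apart. The summed proliferation markers, all 6 of them detected in each group, ranged from 102 to 537 CPM in KCL-HO-1i/5-FU (median 296) against 416 to 629 CPM in vehicle (median 536), and the 6 fibroblast markers from 166 to 4480 CPM (median 1110) against 90.1 to 885 CPM (median 548). The part of these differences in the Asns values was not tested.

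Chac1, which encodes a glutathione-degrading cyclotransferase and is induced by ATF4 with CHOP, lies at chr2:119351229-119354381 (plus strand, GRCm38). Its promoter window, chr2:119350992-119351291 (RefSeq, GRCm38.p6), is shown for comparison with that of Asns and holds the same core once on the other strand, at position -193, in capitals.
Chac1: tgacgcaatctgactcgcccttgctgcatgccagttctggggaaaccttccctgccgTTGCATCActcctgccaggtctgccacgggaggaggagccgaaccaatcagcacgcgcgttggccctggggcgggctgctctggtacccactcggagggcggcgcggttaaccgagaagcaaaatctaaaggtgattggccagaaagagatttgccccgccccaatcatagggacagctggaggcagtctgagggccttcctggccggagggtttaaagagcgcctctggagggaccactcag
Its vehicle values were 3.76, 3.13, 6.33, 2.46 and 2.75 CPM. In KCL-HO-1i/5-FU they were 1.73, 1.26, 1.32, 1.81 and 1.80 CPM, all below vehicle, from 15 to 23 counts a library. The log2 fold change was -1.21 ± 0.38 (SE), with an adjusted p of 0.128 in edgeR and 0.0498 in DESeq2, and over the alternatives it ran from 0.0498 to 1.0. In edgeR it was 0.341 without vehicle replicate 3, where the log2 fold change was -0.93, and 0.4 without KCL-HO-1i/5-FU replicate 3, where it was -1.15.

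In the other groups Chac1 overlapped vehicle. Gemcitabine libraries held 2.86, 1.002, 2.01, 2.56 and 1.69 CPM, a log2 fold change of -0.86 ± 0.37 (adjusted p = 0.941, edgeR) that was -0.57 without vehicle replicate 3. KCL-HO-1i/gemcitabine libraries held 2.97, 6.34, 2.40, 2.19 and 2.68 CPM, a log2 fold change of -0.16 ± 0.37 (adjusted p = 0.864), and 3 of these 5 values lay within the range of gemcitabine alone. The interaction of KCL-HO-1i and gemcitabine was 1.32 ± 0.53 (SE, adjusted p = 1.0, edgeR, with a range of 0.94 to 1.0 over the alternatives). It had an unadjusted p under 0.05, which was lost without the 6.34 CPM library, where the value was 0.94, and without vehicle replicate 3, where it was 1.03. With the mouse code number as a covariate it was 3.19 ± 1.57, and the unadjusted p was again not under 0.05.

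Atf4, the central transcription factor of the branch, lies at chr15:80255184-80257541 (plus strand, GRCm38). It held 197.3, 180.1, 232.9, 143.9 and 156.6 CPM in vehicle and 157.8, 128.9, 143.9, 110.5 and 139.1 CPM in 5-FU. The 5-FU values were lower on average but overlapped those of vehicle. The log2 fold change was -0.42 ± 0.17 (SE, adjusted p = 0.999, edgeR). Its unadjusted p was no longer under 0.05 without 5-FU replicate 4 (-0.36) or without vehicle replicate 3 (-0.32). In the other groups Atf4 averaged 173.2 ± 40.0 CPM with gemcitabine, 164.2 ± 26.1 with the inhibitor alone, 159.8 ± 42.3 in the 5-FU combination and 162.3 ± 15.3 CPM in the gemcitabine combination (SD, n = 5), each overlapping vehicle (182.1 ± 35.1 CPM). Its KCL-HO-1i average was 0.00 ± 0.10 on the log2 scale.

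Ddit3 (chr10:127290774-127296288, plus strand) encodes CHOP, the factor linked to cell death under lasting ER stress. Its highest values were 32.8 CPM in 5-FU replicate 5 and 25.1 CPM in KCL-HO-1i/5-FU replicate 5, against 11.2 to 15.9 CPM in vehicle. KCL-HO-1i/5-FU libraries held 18.6, 18.8, 16.9, 10.12 and 25.1 CPM, of which 4 lay above every vehicle library. The log2 fold change was 0.41 ± 0.28 against vehicle (adjusted p = 0.454, edgeR) and 0.51 ± 0.28 against KCL-HO-1i (adjusted p = 0.356). Ddit3 was the only member besides Dnajb9 with a positive fitted difference in KCL-HO-1i/5-FU against vehicle. The reference annotation holds 2 overlapping genes named Ddit3, and the table gives 1 value.

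Atf3 (chr1:191170296-191218039, minus strand), a stress-induced repressor, and Trib3 (chr2:152337422-152344032, minus strand), a pseudokinase that ATF4 and CHOP induce and that restrains them, showed no group that stood apart. Atf3 ranged from 7.66 CPM in 5-FU replicate 4 to 40.4 CPM in vehicle replicate 3, and its group means lay between 21.1 and 24.5 CPM. Trib3 ranged from 17.2 CPM in KCL-HO-1i/5-FU replicate 3 to 60.8 CPM in gemcitabine replicate 1. Its group means ran from 26.3 ± 5.97 CPM in the gemcitabine combination to 36.6 ± 15.3 CPM with gemcitabine alone, with 33.4 ± 6.76 CPM in vehicle (SD, n = 5 each). The KCL-HO-1i average of Trib3 was -0.31 ± 0.15 (SE, adjusted p = 0.226, edgeR).

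Hspa5 encodes BiP, the ER chaperone that binds unfolded proteins and holds the stress sensors inactive, and lies at chr2:34771970-34777547 (plus strand, GRCm38). Its promoter window, chr2:34771840-34772139 (RefSeq, GRCm38.p6), is shown because it was the only one of the 10 with a match to the form of the ER stress element searched. Other forms of the element were not searched. Capitals mark that element, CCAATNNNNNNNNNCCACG, which starts at position -65 and is found in either orientation in 0.119% of all windows, and the XBP1 core TGACGTG at position -157, found in 2.01%.
Hspa5: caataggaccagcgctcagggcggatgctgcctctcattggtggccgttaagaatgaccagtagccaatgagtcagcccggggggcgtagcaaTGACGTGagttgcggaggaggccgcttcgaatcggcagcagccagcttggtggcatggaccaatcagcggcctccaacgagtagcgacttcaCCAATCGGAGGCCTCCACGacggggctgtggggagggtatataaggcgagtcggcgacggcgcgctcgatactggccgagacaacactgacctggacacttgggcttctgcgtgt
A search for the cyclic AMP response element TGACGTCA, found in 1.79% of windows, gave no match in the 10.

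Hspa5 stood at 1408, 1575, 1353, 1288 and 1409 CPM in vehicle. In KCL-HO-1i/gemcitabine it was 1129, 1078, 1001, 917.2 and 1208 CPM. The groups did not overlap, which held for 1 of 10 stress genes and 4.05% of all genes, and the log2 fold change was -0.40 ± 0.19 (SE, adjusted p = 0.246, edgeR). Against gemcitabine, where the libraries held 1812, 1408, 1448, 1168 and 1296 CPM, it was -0.42 ± 0.19 (adjusted p = 0.351), and with the mouse code number as a covariate this turned to 0.24 ± 0.40. In 5-FU the values were 1398, 1224, 1115, 580.0 and 769.1 CPM, a log2 fold change of -0.47 ± 0.19 against vehicle (adjusted p = 0.999). Without 5-FU replicate 4, the library with the lowest summed milk protein markers, the log2 fold change was -0.32. Without 5-FU replicate 5 it was -0.38, and in neither case was the unadjusted p under 0.05. KCL-HO-1i averaged 1219 ± 229.2 CPM and KCL-HO-1i/5-FU 1180 ± 326.0 CPM (SD, n = 5), both overlapping vehicle. The summed fibroblast markers ranged from 306 to 12000 CPM in KCL-HO-1i/gemcitabine (median 1950) against 90.1 to 885 CPM in vehicle (median 548), and the 7 macrophage markers from 697 to 1750 CPM (median 1180) against 110 to 862 CPM (median 411), and their part in the Hspa5 and Herpud1 values of this group was not tested.

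Herpud1 (chr8:94386438-94395377, plus strand) encodes an ER membrane protein of the degradation pathway. It held 128.4, 139.1, 87.3, 123.3 and 147.3 CPM in vehicle, 67.0, 92.4, 53.3, 106.6 and 66.6 CPM in gemcitabine, and 62.5, 49.6, 85.0, 138.4 and 78.2 CPM in KCL-HO-1i/gemcitabine. Most libraries of both gemcitabine groups lay below most vehicle libraries, with overlap. The log2 fold change against vehicle was -0.70 ± 0.29 with gemcitabine (adjusted p = 0.941, edgeR) and -0.60 ± 0.29 with KCL-HO-1i/gemcitabine (adjusted p = 0.251). For the combination the adjusted p was 0.0195 with limma-voom quality weights, which down-weight variable libraries, and over the alternatives it ran from 0.0195 to 1.0. With the mouse code number as a covariate the gemcitabine difference was 0.06 ± 0.63.

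Xbp1 (chr11:5520659-5525893, plus strand) ranged from 601.9 CPM in gemcitabine replicate 1 to 2825 CPM in vehicle replicate 3, and its group means from 1206 ± 336.5 CPM in KCL-HO-1i/5-FU to 1672 ± 674.6 CPM in vehicle (SD, n = 5). Dnajb9 (chr12:44205559-44210326, minus strand), an ER co-chaperone of BiP and target of spliced XBP1, ranged from 36.0 CPM in 5-FU replicate 4 to 156.7 CPM in KCL-HO-1i replicate 5, with 156.0 CPM in KCL-HO-1i/5-FU replicate 5. Its group means ran from 72.6 ± 15.3 CPM in gemcitabine to 102.0 ± 35.6 CPM in KCL-HO-1i/5-FU. For neither gene was any of the 12 fitted contrasts at an unadjusted p under 0.05 in edgeR.

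Other genes of these pathways were taken from lists, and none of them passed an adjusted p of 0.05 in the KCL-HO-1i average or in any other contrast (edgeR). Of the 108 list genes DESeq2 called 17 and limma-voom 12 in at least 1 contrast, and edgeR without 1 library between 0 and 11. DESeq2 covered every contrast and limma-voom only the treatments against vehicle and the average, so their counts are not alike. The shares of all genes called in these fits are not given here, so these counts have no background beside them. Under KCL-HO-1i/5-FU, the 12 tRNA synthetase genes that ATF4 can induce all had a log2 fold change below 0 against vehicle, with a median of -0.40 (0.01 over all genes), and 9 of 12 had an unadjusted p under 0.05. The largest of these differences was that of Aars, -0.75 ± 0.32, and the smallest p that of Mars, -0.39 ± 0.11 (adjusted p = 0.119). All 10 genes of amino acid synthesis and one-carbon metabolism were also below 0, with a median of -0.59 and 4 of 10 at an unadjusted p under 0.05 (Phgdh, Shmt2, Aldh18a1 and Pycr1). Shmt2, mitochondrial serine hydroxymethyltransferase, averaged 100.8 ± 11.5 CPM in vehicle, 87.5 ± 7.10 CPM in KCL-HO-1i and 68.3 ± 8.93 CPM in KCL-HO-1i/5-FU (SD, n = 5). Of the 8 amino acid transporters, Slc7a1, the cationic amino acid carrier, stood at -1.04 ± 0.31 (adjusted p = 0.12, edgeR) and Slc7a11, the cystine carrier, at 1.36 ± 0.49 (adjusted p = 0.162). The share of all genes at an unadjusted p under 0.05 in this contrast was 17.6%. Without KCL-HO-1i/5-FU replicate 3, 11 of 12 synthetases were below 0, 7 at an unadjusted p under 0.05, with a median of -0.37, and without vehicle replicate 3 also 11, with 4 at such a p and a median of -0.28. All 10 amino acid genes stayed below 0 in both fits, with 4 and 2 at an unadjusted p under 0.05 and medians of -0.54 and -0.45. These fits of the lists were added after seeing the data. Against vehicle, synthetases below 0 numbered 12 of 12 with 5-FU alone (median -0.16) and 4 of 12 with gemcitabine (0.06). With KCL-HO-1i alone and in the gemcitabine combination it was 11 of 12 (medians -0.20 and -0.19). Amino acid genes below 0 numbered 8, 4, 7 and 7 of 10 in the same order. Against 5-FU alone, the 5-FU combination had 10 of 12 synthetases below 0 (median -0.13). Of these, 1 had an unadjusted p under 0.05, beside 11.4% of all genes.

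The list of 13 tested regulators and secreted signals downstream of ATF4 and CHOP had a positive median in KCL-HO-1i/5-FU, 0.26 against vehicle and 0.37 against KCL-HO-1i. Against vehicle 6 of 13 were nevertheless below 0, with 1 higher (Cebpb) and 1 lower (Ero1l) at an unadjusted p under 0.05 beside 17.6% of all genes, and with the inhibitor alone 11 of 13 were below 0 against vehicle (median -0.23). Against KCL-HO-1i 6 of 13 were above 0 at an unadjusted p under 0.05, beside 16.9% of all genes. These were Sesn2 (0.70 ± 0.16, adjusted p = 0.102), Nupr1 (0.85 ± 0.34), Gdf15 (1.53 ± 0.62), Bbc3 (0.67 ± 0.25), Tnfrsf10b (0.49 ± 0.18) and Cebpb (0.37 ± 0.16), several of which are also p53 targets. Without KCL-HO-1i/5-FU replicate 3 the count was 4 of 13 and the median 0.29 against KCL-HO-1i, and the median against vehicle was 0.11. Asns and the amino acid list were on the other side of 0 against KCL-HO-1i, with all 10 of the latter below 0 and a median of -0.33. Of these 10 genes 1 (Shmt2) had an unadjusted p under 0.05, beside 16.9% of all genes. The difference between the lists was not tested. The genes named in this and the preceding paragraph other than Asns, Shmt2 and Slc7a1, and Derl1, Nr4a1 and Iars further on, were chosen after their values were seen.

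In the KCL-HO-1i average all 14 genes of the eIF2 kinases, eIF2, eIF2B and its phosphatase were below 0, with 7 of 14 at an unadjusted p under 0.05 and a median of -0.15. Eif2ak3, the ER-stress kinase PERK, had the smallest p (-0.20 ± 0.06, adjusted p = 0.0668). Eif2ak1, the heme-regulated kinase, averaged 51.9 ± 3.84 CPM in vehicle, 59.0 ± 19.8 with 5-FU, 50.3 ± 2.30 with gemcitabine, 49.5 ± 4.07 with the inhibitor alone, 46.7 ± 6.09 in the 5-FU combination and 47.6 ± 5.75 CPM in the gemcitabine combination (SD, n = 5), with an average log2 fold change of -0.16 ± 0.08 (adjusted p = 0.221, edgeR). By background this was -0.34 ± 0.14 on 5-FU, where 1 library stood at 93.47 CPM, -0.07 ± 0.14 on vehicle and -0.08 ± 0.14 on gemcitabine. In the same average 12 of 12 tRNA synthetases were below 0 (7 at an unadjusted p under 0.05, smallest for Tars, -0.19 ± 0.06, adjusted p = 0.0615), and 9 of 10 amino acid genes were (4 at an unadjusted p under 0.05, Shmt2 at -0.38 ± 0.09, adjusted p = 0.0525). Of the transporters 2 of 8 were below 0 and 1 above 0 at an unadjusted p under 0.05, Slc7a1 standing at -0.51 ± 0.18 (adjusted p = 0.0966). These counts stand beside a background of 23.0% of all genes. Without KCL-HO-1i/5-FU replicate 3 the synthetases at an unadjusted p under 0.05 numbered 5, as they did without vehicle replicate 3. With the mouse code number as a covariate the average of Asns was 0.13, and no list gene passed an adjusted p of 0.05. The directions of the list genes in that fit are not given here, for these lists or the others.

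In the ER arm the KCL-HO-1i average had 14 of 15 chaperones and folding enzymes below 0 with a median of -0.08 (-0.0007 over all genes, of which 23.0% had an unadjusted p under 0.05), and only Hyou1, an ER chaperone of the Hsp70 family, had an unadjusted p under 0.05 (-0.27 ± 0.11, adjusted p = 0.137). Of the 14 genes of ER-associated degradation and export, Sec23b, a coat protein of export vesicles, stood at -0.30 ± 0.09 (adjusted p = 0.0618) and Derl1, a membrane protein of the degradation machinery, at 0.16 ± 0.08, the 2 of the list with an unadjusted p under 0.05. Of 9 sensors and processing factors only Mbtps2, a protease that cleaves ATF6, had an unadjusted p under 0.05 (-0.15 ± 0.06, adjusted p = 0.168), and of the 13 regulators none did (Ero1l, an ER oxidase, had the smallest p, -0.40 ± 0.21, adjusted p = 0.255). Among 13 immediate early genes, which tissue handling can also induce, Klf2 stood at 1.12 ± 0.29 (adjusted p = 0.0525) and Nr4a1 at -0.48 ± 0.14 (adjusted p = 0.0618). By background, chaperones below 0 with KCL-HO-1i numbered 12 of 15 on vehicle (median -0.06) and 14 of 15 on gemcitabine (-0.29). On 5-FU it was 1 of 15 (0.12). The medians of all genes were -0.01, 0.0004 and 0.02 there. Degradation and export genes below 0 numbered 12 of 14, 13 of 14 and 1 of 14 on these backgrounds. The difference between backgrounds was not tested for these lists. The 5-FU background includes 5-FU replicate 4, the library with the lowest Hspa5, and its counts are not given without that library. Under 5-FU alone 14 of 15 chaperones were below 0 against vehicle with a median of -0.26 (0.0011 over all genes), and 3 of 15 had an unadjusted p under 0.05, beside 3.89% of all genes. Without 5-FU replicate 4 this was 13 of 15 with a median of -0.12 and 1 at such a p. Under gemcitabine 2 of 15 were below 0, with a median of 0.08 (0.0297 over all genes) and 0 at an unadjusted p under 0.05 (edgeR), where 3.83% of all genes had one, and without vehicle replicate 3 it was 7 of 15 with a median of 0.04. Under KCL-HO-1i/gemcitabine 14 of 15 were below 0 with a median of -0.25 (0.0191 over all genes) and 3 at an unadjusted p under 0.05, beside 19.8% of all genes, and Hyou1 stood at -0.66 ± 0.19 (adjusted p = 0.0882).

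**Figure D3:**
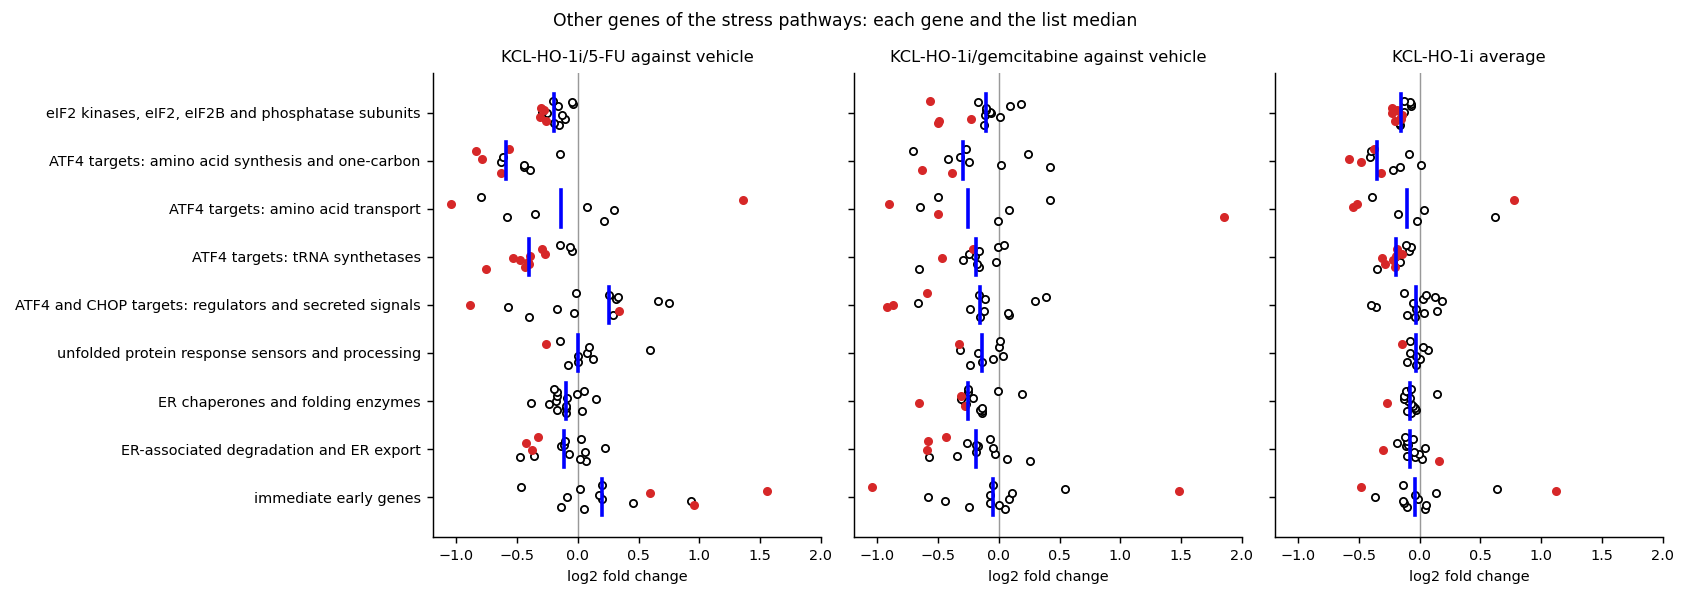
Fitted log2 fold change (horizontal axis) of each tested gene of 9 lists (rows) in both combinations against vehicle and in the KCL-HO-1i average (panels). Points are genes, red where the unadjusted p is under 0.05 in edgeR, and the blue bar is the list median, which lies farthest below 0 for amino acid synthesis in KCL-HO-1i/5-FU (-0.59).

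Among the 45 pairs of the 10 genes, Pearson's r of log2 CPM over the 30 libraries was positive for 39, with a median of 0.298. Both r and Spearman's rho passed an adjusted p of 0.05 over the 45 pairs (permutation tests, two-sided, 100000 permutations) for 2 pairs. Dnajb9 and Herpud1 had r = 0.649 (p = 8e-05, adjusted p = 0.0036) and rho = 0.776 (p = 1e-05, the smallest these permutations can give, adjusted p = 0.00045), and r was 0.731 without the 2 libraries farthest from the median of Dnajb9. With the group mean subtracted from each library r was 0.716 (adjusted p = 0.0009), so the relation was also present with the differences between groups removed. Atf4 and Hspa5 had r = 0.534 (p = 0.00231, adjusted p = 0.0347) and rho = 0.549 (p = 0.00188, adjusted p = 0.0423), with r = 0.61 without 2 libraries. With group means subtracted this was r = 0.421 and rho = 0.456, and neither passed (adjusted p = 0.0595 and 0.0581, permutation tests).

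After the group means were subtracted, 6 pairs passed on both measures. Besides Dnajb9 and Herpud1 these were Atf4 and Trib3 (r = 0.582, rho = 0.628), Xbp1 and Dnajb9 (r = 0.512, rho = 0.521), Trib3 and Chac1 (r = 0.501, rho = 0.508), Atf4 and Chac1 (r = 0.485, rho = 0.555) and Atf3 and Xbp1 (r = 0.472, rho = 0.506), with permutation p-values adjusted over the 45 pairs between 0.00562 and 0.0367 for these 5. Without the 2 farthest libraries their r lay between 0.367 (Atf3 and Xbp1) and 0.612 (Atf4 and Trib3). Permutations with group means subtracted ran over all 30 libraries and did not allow for the 6 means removed. The p-values of that version, here and above, therefore tend to be too small. Ddit3 and Asns had the lowest r of all pairs, -0.411 with rho = -0.464 over the 30 libraries (permutation p = 0.025 and 0.0101, adjusted p = 0.0751 and 0.065), and -0.306 and -0.244 with group means subtracted. Correlations within the mouse code numbers were not computed, and all of these numbers but 76 hold few tumours.

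**Figure D4:**
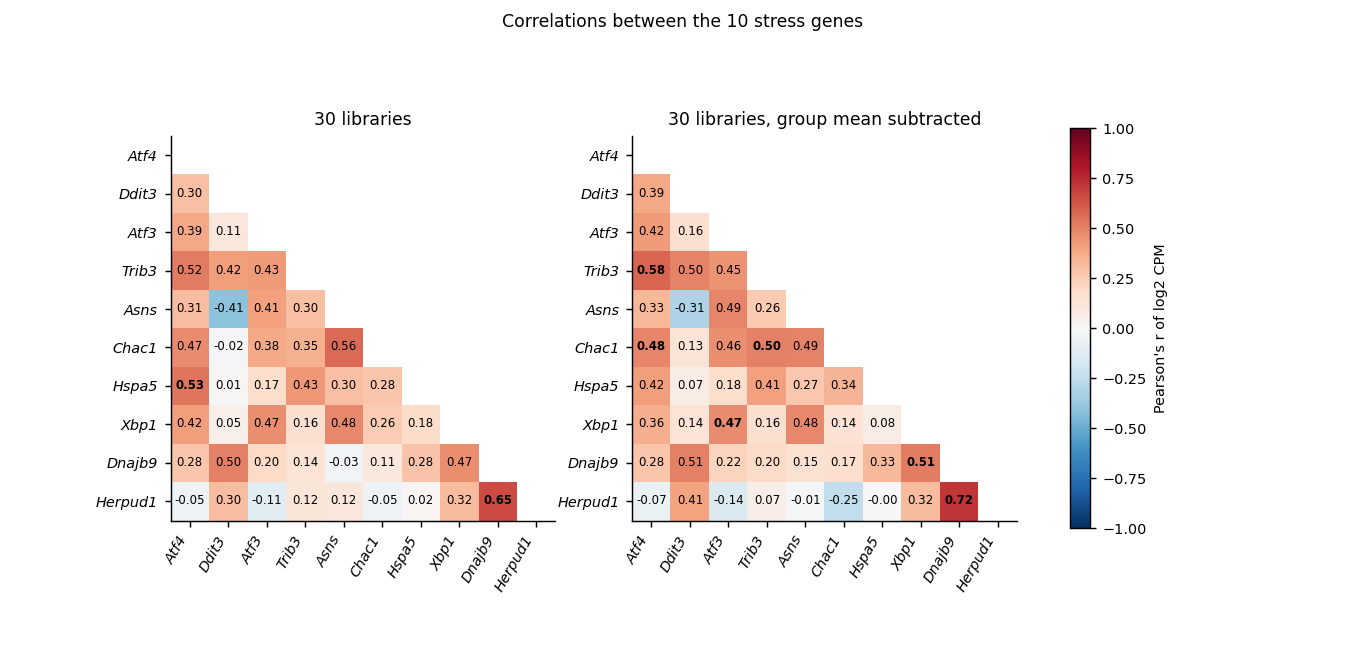
Pearson's r of log2 CPM between each pair of the 10 stress genes over 30 libraries (left) and with the group mean subtracted (right), coloured from -1 (blue) to 1 (red). Bold values passed an adjusted p of 0.05 by both Pearson's and Spearman's permutation tests, which on the right did not allow for the means subtracted. The highest is Dnajb9 with Herpud1 (0.65 and 0.72) and the lowest Ddit3 with Asns (-0.41 and -0.31).

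The tested genes most like each member were found by Spearman's rho of log2 CPM over the 30 libraries, as a description with no test. The points share library depth and tumour composition. The closest of all were the neighbours of Hspa5, which were other ER folding genes, namely Hsp90b1 (rho = 0.94), Pdia4 (0.928) and Pdia6 (0.895). Of the 15 listed chaperones and folding enzymes all had a positive rho with Hspa5, with a median of 0.833, whereas the median of the same list was 0.0167 with Xbp1, -0.00645 with Dnajb9 and 0.0291 with Herpud1. The list of degradation and export genes had a median rho of 0.361 with Hspa5, 0.229 with Dnajb9 and 0.227 with Herpud1. For Ddit3 the nearest genes were Nradd (0.776), Ppp1r15a (0.758), whose product directs the phosphatase that reverses eIF2 phosphorylation, and Anxa2 (0.744).

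For Asns they were Nus1 (rho = 0.798), Tarbp1 (0.797) and Tfrc (0.789), the transferrin receptor, and its median rho was 0.483 with the 12 tRNA synthetases (highest for Iars, 0.762) and 0.413 with the 10 amino acid genes, all positive. The synthetase median was also positive for Hspa5 (0.402), Trib3 (0.333), Atf4 (0.305), Chac1 (0.303), Atf3 (0.178) and Xbp1 (0.016), and the amino acid median was 0.258 for Hspa5, 0.228 for Chac1, 0.134 for Trib3, 0.0885 for Atf4, 0.0323 for Xbp1 and 0.00378 for Atf3. For Ddit3 the same medians were -0.298 and -0.276, for Dnajb9 -0.405 and -0.386, and for Herpud1 -0.297 and -0.263. The genes nearest to Atf4 were Clk2 (0.752), Cnih4 (0.735) and Katnbl1 (0.728), to Atf3 Impdh1 (0.814), Klf11 (0.749) and Pigo (0.738), and to Trib3 Smox (0.726), Il23a (0.718) and Csrp1 (0.698). For Xbp1 they were Esrp2 (0.817), Ccdc117 (0.782) and Sdr42e1 (0.77), for Dnajb9 C2cd2l (0.817), Tmed4 (0.81) and Zbtb43 (0.807), and for Herpud1 Pgp (0.873), Tsc22d2 (0.86) and Rundc1 (0.854). Chac1, with the fewest counts, had the weakest, Enpp4 (0.581), Gpa33 (0.568) and Rhot2 (0.551).

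**Figure D5:**
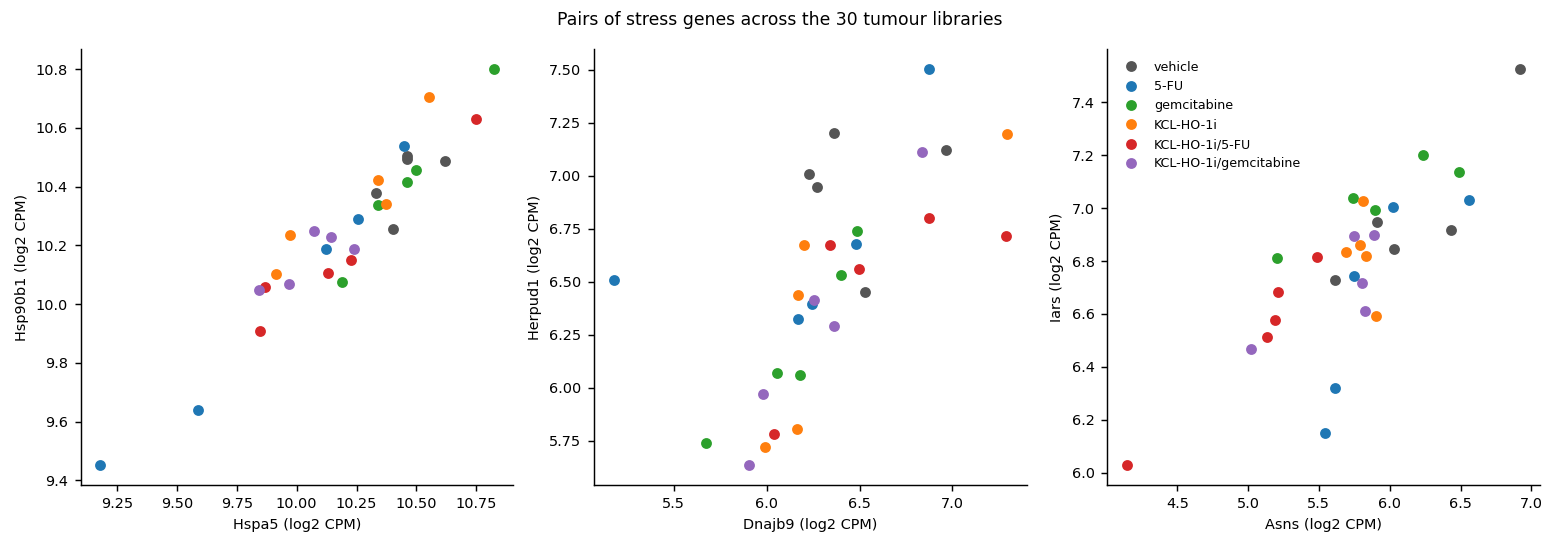
Log2 CPM of Hspa5 and Hsp90b1, Dnajb9 and Herpud1, and Asns and Iars (both axes log2) in the 30 libraries, coloured by group. Hspa5 and Hsp90b1 lie close to a line (Spearman's rho 0.94) that runs from 2 low 5-FU libraries to the highest gemcitabine library, and KCL-HO-1i/5-FU replicate 3 has the lowest Asns and Iars.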

How the data were processed

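Total RNA of 30 mammary tumours was sequenced from stranded libraries. Per the methods of the study and the submitters' processing notes, the authors checked reads with FastQC 0.11.9, aligned with STAR 2.7.9a, quantified transcripts with Salmon 1.9.0 and used tximport to reach gene level. The notes name build mm10, and the annotation release is not given in the sources used here. The deposited values are expected counts (estimated numbers of reads), although the methods speak of TPM counts. Of the values 38% are not whole, and library totals differ where TPM would sum to the same total in each library.

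Values were rounded to whole numbers and fitted in edgeR 4.0.16 (R 4.3.3, TMM, filterByExpr by group with a minimum count of 10, robust quasi-likelihood fit of 6 group means over all 30 libraries). The genes left out held 0.0565% of counts. The fit's common coefficient of biological variation came to 0.401. The 12 contrasts and a test of any difference were two-sided, with Benjamini-Hochberg adjustment over 13663 genes and a threshold of 0.05. CPM used effective library sizes, and log2 CPM a prior count of 2. Limits from counts cover counting error only. The methods describe individual mice collected on separate days. No 2 libraries of a group were near-identical (lowest chi-square per degree of freedom 19.9 over 60 pairs). Simulated data with 100 genes changed by each log2 fold were used as a check. For KCL-HO-1i against vehicle (13599 genes) 66% were recovered at a log2 fold change of 1 and 93% at 2, and for the KCL-HO-1i average (13593 genes) 89% and 98%. There were 10 and 9 false calls. Only genes with a higher mean CPM than Chac1 were changed, and recovery with fewer changed genes was not simulated.

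Groups came from the labels. The members and lists were chosen with earlier results of these data known. Named genes were the 10 members, Eif2ak1, Hmox1, the gene of each pathway list with the smallest p in the KCL-HO-1i average, and the 3 genes nearest to each member by Spearman's rho. Other pathway genes that the text names were chosen after their values were seen. Lists covered 9 gene groups of the stress pathways and 12 of cell type markers, of which the text gives those that bear on a result. Gene positions and exon lengths came from GENCODE M21 (GRCm38) and promoter windows from RefSeq (GRCm38.p6), matched by symbol for 10 of 10 members, with the longest gene taken where a name occurred more than once. Alternatives were RLE normalisation, no filter, DESeq2 1.42.0, limma-voom (limma 3.58.1) with quality weights, the mouse code number as a covariate, a block for the replicate number, only the groups compared, each library left out in turn and, for correlations, group means subtracted, RLE and a prior count of 0.5. Python 3.11.15 and scipy 1.17.1 were used for correlations.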

Additional observations from a re-analysis of the deposited data

Results flagged for a closer look

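In 60 checks of 10 genes in 6 groups of 5, 6 libraries stood far from the other 4 of their group (gap to the nearest library over 0.71 of the group's range), where chance flags about 1 in 20. Atf3 was 40.37 CPM in vehicle replicate 3 against 18.52 to 20.13 CPM in the other vehicle libraries. Ddit3 was 32.83 CPM in 5-FU replicate 5 against 8.797 to 15.33 CPM, and in the same library Herpud1 was 181.2 CPM against 79.88 to 102.1 CPM. Dnajb9 was 156.7 CPM in KCL-HO-1i replicate 5 against 63.39 to 73.39 CPM. Asns was 32.22 CPM in KCL-HO-1i/gemcitabine replicate 3 against 53.54 to 59.24 CPM, the 1 library of that group in the range of KCL-HO-1i/5-FU. Chac1 was 6.336 CPM in KCL-HO-1i/gemcitabine replicate 2 against 2.186 to 2.966 CPM. In 5-FU replicate 5 the summed skeletal muscle markers were 182 CPM against a median of 17.7 CPM over the 30 libraries and the proliferation markers 142 CPM against 455 CPM, and their part in these values was not tested.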

How the results depend on the processing

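No member passed an adjusted p of 0.05 in edgeR. In KCL-HO-1i/5-FU against vehicle, DESeq2 called 2 members and limma-voom with quality weights 1. In KCL-HO-1i/gemcitabine against vehicle limma-voom called 1, and DESeq2 called 1 in the KCL-HO-1i average and 1 for any difference between groups. Limma-voom did not cover the test of any difference, and the shares of all genes that these tools called are not given here. Leaving out 1 library gave 0 to 1 calls in KCL-HO-1i/5-FU against vehicle and in the average.

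The counts of members at an unadjusted p under 0.05 moved more. With the mouse code number as a covariate they were 0 for 5-FU, 0 for gemcitabine, 1 for the 5-FU combination and 0 for the gemcitabine combination against vehicle, and 0 for any difference. In the same fit 4 changes turned direction, Herpud1 in gemcitabine against vehicle (0.06), Asns in KCL-HO-1i/gemcitabine against vehicle (0.19) and in the KCL-HO-1i average (0.13), and Hspa5 in KCL-HO-1i/gemcitabine against gemcitabine (0.24). Vehicle shares 1 of its 4 code numbers with another group, so this fit rests on few tumours. With only the groups compared the count for 5-FU was 1. Limma-voom gave 1 for KCL-HO-1i against vehicle, and no filter or DESeq2 gave 2 in the average. Leaving out 1 library gave 0 to 3 for 5-FU, 0 to 2 for gemcitabine, 0 to 1 for KCL-HO-1i and 0 to 3 for KCL-HO-1i/gemcitabine against vehicle, 1 to 2 in the average and 1 to 3 for any difference. With the replicate number as a block the counts were 1 for gemcitabine against vehicle and 2 in the average. The same numbers did not deviate together (mean correlation 0.00284 over 75 pairs), so they were not taken to pair the tumours.

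Of the 106 fitted changes of members with an unadjusted p of 0.05 or more, 72 changed sign under at least 1 of 37 alternatives, and none of these was larger than 0.60 on the log2 scale. Pairs of members that passed both correlation tests numbered 6 with group means subtracted and 1 with RLE normalisation, where Atf4 and Hspa5 no longer passed. Depth limits Chac1, with 9 counts in its lowest library.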
